A study of Rattus norvegicus with 24 samples.

Results

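Rat pulmonary microvascular endothelial cells (PMVECs) that carry a knockout (KO) of Pfkfb3 were compared after 24 h in normoxia with 25 mM fructose or with 25 mM glucose. The comparison takes 6 of the 24 libraries of the series, chosen by their labels: 3 of KO normoxia fructose and 3 of KO normoxia glucose. Every gene that passed the filter on low counts was tested. The other 18 libraries are the same KO cells in hypoxia with either sugar and wild-type (WT) cells of the line in both oxygen conditions with either sugar, at the same dose and time. They share the estimate of the spread, and the sugar comparisons in WT normoxia and KO hypoxia, which share no library with KO normoxia, are given beside it. The labels do not give the altered part of the gene, the clone, the oxygen level, or whether the numbered libraries of a group were separate cultures. Cells without either sugar, or with both, are not among the groups, so more fructose and less glucose cannot be told apart here, and "with fructose" means with fructose in place of glucose.

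Pfkfb3 encodes one of the enzymes that make and remove fructose 2,6-bisphosphate, an activator of the committed step of glycolysis. Glucose enters glycolysis above that step. Fructose can be phosphorylated by ketohexokinase and enter below it as triose phosphates, or be phosphorylated by hexokinase and enter above it. Sugar supply is also sensed by transcription: MondoA and ChREBP switch on Txnip when hexose phosphates are plentiful. Other factors respond to signals other than sugar. ATF6, XBP1 and ATF4 respond to misfolded protein and to lack of amino acids. SREBP2 switches on sterol synthesis when sterols in the endoplasmic reticulum (ER) are low.

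The 6 libraries held 14344010 to 19224875 counts, with 16192 to 17090 genes counted at least once in a library. Levels are CPM, counts per 1000000 of the TMM-scaled library, and fold changes are log2 fructose over glucose ± standard error, with Benjamini-Hochberg adjusted p-values of edgeR's quasi-likelihood test over 14770 genes. The endothelial label was only partly borne out by markers. Of 16 endothelial markers 15 were matched to the table, 8 lay below 1 CPM in all 6 libraries and 5 of these had no count (Esam, Emcn, Robo4, Sox17 and Sox18). Flt1, Icam2, Egfl7 and Vwf lay at 14.3 CPM or above in every library. Tie1, Tek, Nos3 and Erg were also read in every library, between 0.174 and 2.82 CPM. Cdh5, the VE-cadherin gene, had 6 counts over the fructose libraries and 4 over the glucose libraries. The leukocyte marker Ptprc had no count, and the 6 leukocyte markers summed to 3.024 to 5.504 CPM. The 6 fibroblast markers summed to 3352 to 3822 CPM with fructose and 3648 to 4445 CPM with glucose, mostly from Col1a1 (2566 to 3361 CPM) and Col1a2 (555 to 1081 CPM), while Dcn and Lum had no count. The 8 lung epithelial markers summed to 1642 to 1841 CPM with fructose and 1532 to 1771 CPM with glucose, mostly from Krt8 (1520 to 1824 CPM), while Sftpb, Scgb1a1 and Nkx2-1 had no count. None of the tested leukocyte, fibroblast or lung epithelial markers passed the test between sugars. The endothelial markers summed to 268.9 to 327.7 CPM with fructose and 233.4 to 279.3 CPM with glucose. Of the 4 lymphatic markers, Pdpn lay at 382 to 465 CPM and Flt4 at 86.1 to 101 CPM. Prox1 had no count and Lyve1 lay at 0.155 CPM or below.

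Pfkfb3 itself (ENSRNOG00000018911, chromosome 17, 70684134 to 70713726 in Rnor_6.0) was still read in KO cells. It lay at 38.1, 31.4 and 33.9 CPM with fructose and at 38, 37.1 and 40.8 CPM with glucose. The ranges overlap, and the change of -0.17 ± 0.093 did not pass (adjusted p = 0.511, 95% interval -0.36 to 0.03). A count over the whole gene does not show which part was removed.

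Fructose changed 265 of the 14770 genes in KO normoxia (1.79%), 169 upward (1.14%) and 96 downward (0.65%). In each of the 265 the 3 fructose libraries lay all above or all below the 3 glucose libraries, against 2723 of all tested genes (18.4%). Passing the test on these same libraries makes such a separation likely, so it is no further support. The changes were mostly small: their median size was 0.502 on the log2 scale, and 38 of the 265 reached 1. The same sugar comparison passed for 5596 genes in WT normoxia (37.9%) and 801 in KO hypoxia (5.42%), and the genotype by sugar interaction in normoxia, the test that the response differs between KO and WT, passed for 2827 (19.1%). The count of 265 moved by more than 1.5 times when 1 library was left out, to 149 without fructose library 1, 155 without fructose library 2, 150 without glucose library 2 and 145 without glucose library 3. It was 415 by DESeq2 and 571 with the replicate number as a block, though the labels do not say what that number marks. The KO hypoxia count moved as far when a library of that condition was left out, to 532 without fructose library 1, 525 without fructose library 3, 524 without glucose library 1 and 455 without glucose library 2. All 265 kept their sign in each of the fits without a KO normoxia library and in DESeq2. This was all but fixed in advance, since their groups do not overlap and these fits drew on the same counts. In bulk RNA, fewer cells of a type and less RNA per cell cannot be told apart, which touches every level below.

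Cyp1b1, Adh7 and Nqo1, 3 of the 4 largest rises that the naming rule takes, were placed in a list of the aryl hydrocarbon receptor (AhR) and its targets. The AhR is a ligand-activated transcription factor that pairs with ARNT at xenobiotic response elements and switches on enzymes that oxidize, reduce and conjugate small molecules. That list was drawn up after the values had been seen, so the placing of these 3 genes in it and its count are a description. In KO normoxia 6 of 11 tested members rose (1.14% of all genes) and 1 fell (0.65%). The list's median change was 0.99 against 0.0 over all genes tested. In WT normoxia 8 of the 11 rose (19.9% of all genes rose there), and in KO hypoxia 6 rose (2.69% of all genes) and 1 fell (2.73%). 2 of the promoters are printed because their genes rose and their windows hold the element's core, written here in capitals (TNGCGTG on either strand). They are RefSeq sequences of build GRCr8 and run from 250 bases before the start of the gene to 50 after it.
Cyp1b1, chr6:21094315-21094614, plus strand: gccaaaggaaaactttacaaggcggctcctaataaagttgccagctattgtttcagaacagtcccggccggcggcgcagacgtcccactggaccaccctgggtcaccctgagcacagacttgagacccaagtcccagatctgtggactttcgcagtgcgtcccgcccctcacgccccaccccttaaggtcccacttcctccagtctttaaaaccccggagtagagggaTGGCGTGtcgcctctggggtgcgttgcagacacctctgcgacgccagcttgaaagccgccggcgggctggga
Ahrr, chr1:30821969-30822268, plus strand: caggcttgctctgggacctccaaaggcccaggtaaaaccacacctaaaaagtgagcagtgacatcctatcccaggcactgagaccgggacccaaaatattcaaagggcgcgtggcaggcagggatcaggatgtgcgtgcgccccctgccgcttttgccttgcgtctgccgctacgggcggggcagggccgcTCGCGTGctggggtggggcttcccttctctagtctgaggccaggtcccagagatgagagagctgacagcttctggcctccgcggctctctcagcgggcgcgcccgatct
The core begins 22 bases before the start of Cyp1b1 and 59 bases before that of Ahrr. It was found in 3 of the 9 list members with a window (Cyp1b1, Ahrr and Adh7) and in 1637 of all 33469 windows (4.89%). The core was chosen for the search after the values had been seen, and a match is a run of letters, not a shown binding site.

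Cyp1b1 (ENSRNOG00000040287, chromosome 6, 2307808 to 2316722 in Rnor_6.0), a cytochrome P450 that is a standard AhR target, lay at 242, 249 and 251 CPM with fructose and at 35, 24.7 and 24.8 CPM with glucose. The fructose libraries lay close together and far above the glucose libraries, a change of 3.13 ± 0.44 (adjusted p = 0.000712). In WT normoxia Cyp1b1 changed by 2.91 and in KO hypoxia by 1.93, both past the threshold, and the interaction with genotype did not pass (0.22, adjusted p = 0.851).

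Nqo1, a quinone reductase shared by the AhR and NRF2 programmes, lay at 589, 596 and 489 CPM with fructose and at 164, 130 and 126 CPM with glucose, a rise of 1.99 ± 0.25 (adjusted p = 0.000224). Adh7, an alcohol and retinol dehydrogenase, lay at 31.9, 28.9 and 40.1 CPM with fructose and at 6.57, 6.76 and 7.58 CPM with glucose, a rise of 2.27 ± 0.26 (adjusted p = 5.21e-05). For both genes every fructose library lay above every glucose library. Tiparp and Ahrr encode repressors of the receptor. Tiparp lay at 58.3, 58.7 and 59.5 CPM with fructose and at 31.6, 30.2 and 27.3 CPM with glucose, a rise of 0.99 ± 0.089 (adjusted p = 8.45e-07). Ahrr rose by 0.88 ± 0.13 (adjusted p = 0.000224), from 33.3 to 41.2 CPM with glucose to 66.5 to 72.5 CPM with fructose. The glucuronosyltransferase gene Ugt1a8, whose exons are partly shared with other genes of its locus so that reads cannot be split with certainty, rose by 1.18 ± 0.13, less than the 2.76 in WT (interaction -1.58, adjusted p = 9.54e-07).

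The receptor gene Ahr (0.01 ± 0.085, 95% interval -0.17 to 0.19) and its partner Arnt (-0.03 ± 0.084, 95% interval -0.21 to 0.15) did not pass. Cyp1a1, the best-known target, had no count with glucose and lay at 0.414, 0.367 and 0.202 CPM with fructose, and did not pass by edgeR (adjusted p = 0.108) but did by DESeq2 (adjusted p = 0.0389). Arnt2, an ARNT paralogue, went the other way: it lay at 3.61, 3.37 and 3.48 CPM with fructose and at 6.69, 6.13 and 7.43 CPM with glucose, a fall of 0.96 on the log2 scale (adjusted p = 0.0294), while it rose by 0.48 in WT. Its call in KO was lost without any single one of the 6 libraries (adjusted p up to 0.136).

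Beyond this list, Ptgr1, a reductase of reactive lipid aldehydes and prostaglandins, rose by 1.31 ± 0.2 (adjusted p = 0.000805), from 35.1 to 50.4 CPM to 86.8 to 124 CPM. Akr1b8, an aldo-keto reductase with close paralogues, lay at 431, 461 and 297 CPM with fructose and 218, 198 and 157 CPM with glucose, a rise of 1.05 ± 0.21 (adjusted p = 0.0128). The Akr1b8 call was lost without fructose library 1 or 2 or glucose library 2 or 3 (adjusted p up to 0.0899), and it did not pass when the fit held only the 6 libraries (adjusted p = 0.118). Of the wider list of NRF2 targets and glutathione enzymes Nqo1 alone passed among 17 tested in KO (6 at an unadjusted p under 0.05; 1.14% of all genes rose), and 13 rose in WT (19.9% of all genes). The interaction was negative and past the threshold in 5 of the 17 (9.99% of all genes), so for the others a difference between genotypes was not shown.

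**Figure D1:**
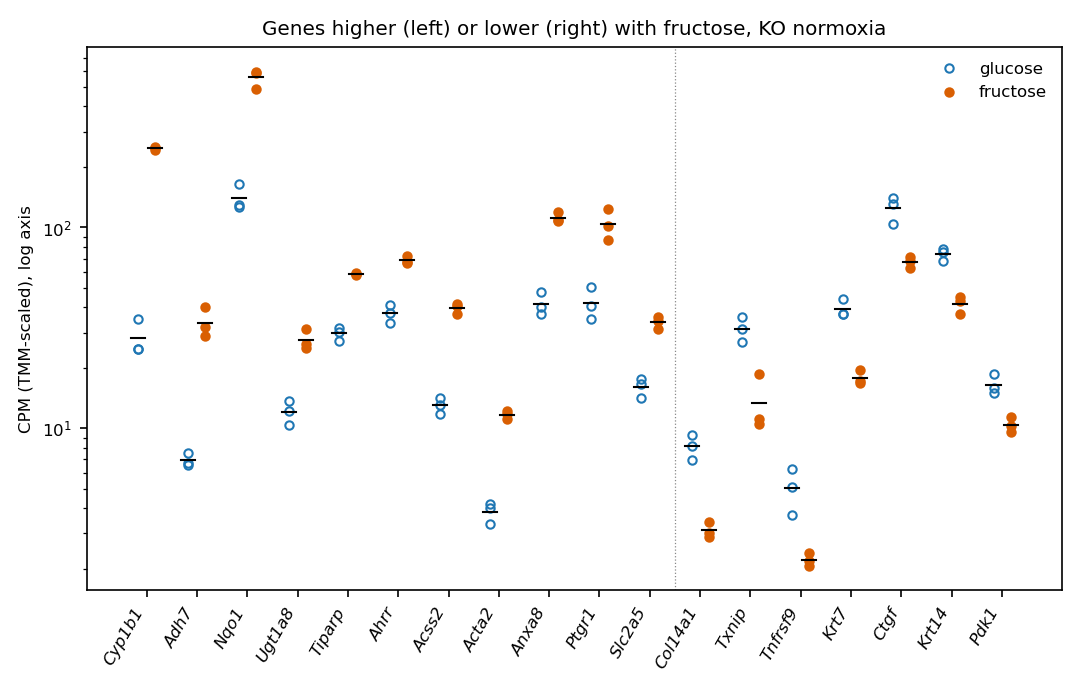
CPM (log axis) of 18 genes named in the text in the 3 glucose (open blue) and 3 fructose (filled orange) libraries of KO normoxia, with a bar at each group's mean. For each gene the 3 fructose libraries lie all above (left of the dotted line) or all below (right of it) the 3 glucose libraries, as they do for all 265 genes past the threshold.

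Genes of sterol synthesis rose together. The route runs from acetyl-CoA through mevalonate, isoprenoids and squalene to lanosterol and then cholesterol. All 21 listed and tested genes of cholesterol synthesis and its regulation were higher with fructose, with a median change of 0.76. Of the 21, 18 were past the threshold (1.14% of all genes rose). In WT normoxia 8 of the 21 rose (19.9% of all genes) and 2 fell (17.9%), with a median of 0.19. In KO hypoxia all 21 rose (2.69% of all genes), with a median of 1.28. The genotype interaction was positive and past the threshold in 12 of the 21 (9.15% of all genes), so for these the response was higher in KO than in WT.

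Hmgcs1 (ENSRNOG00000016552, chromosome 2, 52431601 to 52445055 in Rnor_6.0), the synthase that makes the precursor of mevalonate, lay at 425, 417 and 424 CPM with fructose and at 257, 226 and 230 CPM with glucose. That is a rise of 0.83 ± 0.096 (adjusted p = 1.3e-05), against -0.18 in WT (adjusted p = 0.151), with an interaction of 1.01 (adjusted p = 1.03e-05). Acat2, the thiolase before it, lay at 250, 249 and 241 CPM with fructose and at 131, 119 and 111 CPM with glucose, a rise of 1.04 ± 0.15 (adjusted p = 0.000322). The glucose libraries of both genes lay below all fructose libraries.

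Downstream, Mvk rose by 0.54, Mvd by 0.94, Idi1 by 0.87 and Fdps by 0.65 on the way to farnesyl diphosphate. Fdft1 and Sqle, which make squalene and its epoxide, rose by 0.55 and 0.69, and Lss, which closes the ring to lanosterol, rose by 0.87 ± 0.088 (adjusted p = 2.89e-06). Fdft1 fell in WT (-0.27, adjusted p = 0.0129). Of the enzymes that turn lanosterol into cholesterol, Cyp51 rose by 0.71, Msmo1 by 0.90, Nsdhl by 0.85, Hsd17b7 by 0.89, Sc5d by 0.76 and Dhcr7 by 0.91. Msmo1 lay at 900, 926 and 874 CPM with fructose and 515, 488 and 442 CPM with glucose. Tm7sf2, a sterol reductase, lay at 19.3, 14.1 and 19 CPM with fructose and at 5.53, 4.25 and 7.89 CPM with glucose, which was the largest change of the list (1.56 ± 0.23, adjusted p = 0.000246).

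Insig1, the feedback protein that holds back SREBP, rose by 0.53 ± 0.097 (adjusted p = 0.00237). The sterol carrier gene Stard4 rose by 0.33 (adjusted p = 0.0431), a call lost without any one library other than glucose library 1 (adjusted p up to 0.194). The other 3 members did not pass: Ebp was at 0.42 (adjusted p = 0.0832 by edgeR, but 0.0479 by DESeq2 and 0.0428 when the fit held only the 6 libraries), Pmvk at 0.38 (0.179) and Srebf2, which encodes the SREBP2 factor, at 0.11 (0.487). The core of the sterol response element (TCACNCCAC on either strand) was in none of the 17 promoter windows of the list's members and in 374 of all windows (1.12%).

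**Figure D2:**
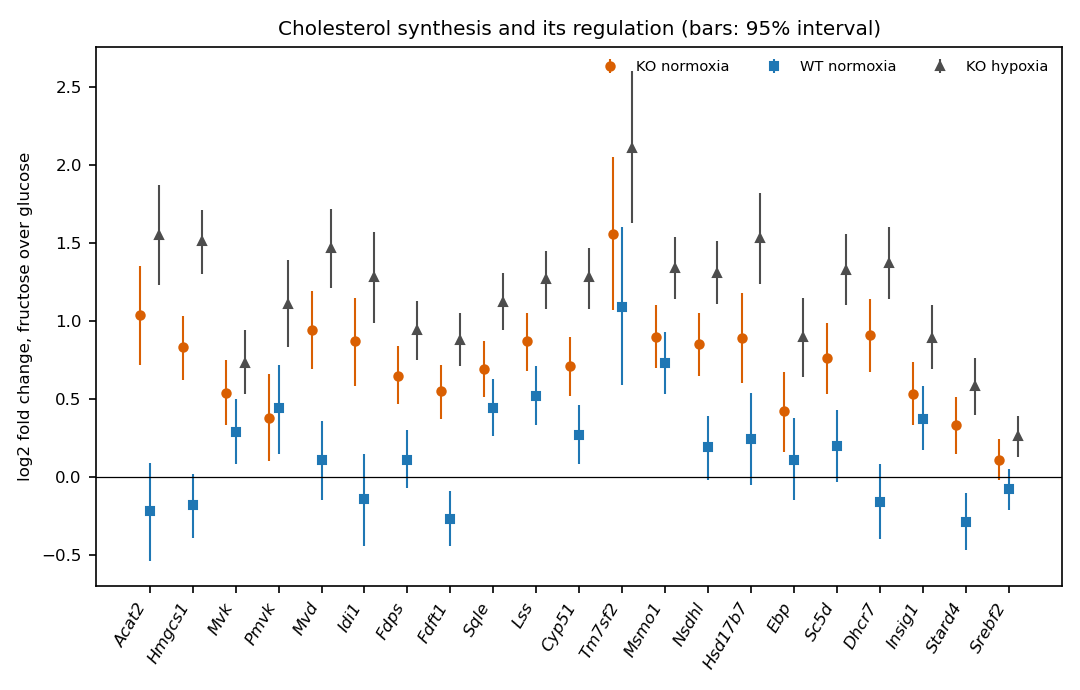
Log2 fold change, fructose over glucose, of the 21 tested cholesterol genes in pathway order, in KO normoxia (orange circles), WT normoxia (blue squares) and KO hypoxia (grey triangles); bars are 95% intervals. The KO values are all above 0, with medians of 0.76 in normoxia and 1.28 in hypoxia, while WT values lie on both sides of 0 around a median of 0.19.

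Some genes that supply acetyl-CoA and reducing power to lipid synthesis also rose, and those named here were picked after their values had been seen. Acss2 (ENSRNOG00000018755, chromosome 3, 151032952 to 151075856 in Rnor_6.0), which makes acetyl-CoA from acetate, lay at 40.6, 37.2 and 41.4 CPM with fructose and at 13.1, 11.8 and 14.1 CPM with glucose. Every fructose library was well above the glucose libraries, a rise of 1.61 ± 0.15 (adjusted p = 1.51e-06), larger than in WT (0.50; interaction 1.11, adjusted p = 0.000641). Acly, which makes acetyl-CoA from citrate, rose by 0.46 ± 0.068 (adjusted p = 0.000254), and Slc25a1, the carrier that exports citrate from mitochondria, by 0.50 ± 0.075 (adjusted p = 0.000254). The NADPH producers Me1, Idh1 and G6pdx rose by 0.56, 0.54 and 0.53, with adjusted p = 0.00097, 0.000659 and 0.000134. G6pdx was the 1 gene of 10 in the pentose phosphate list to pass, and Idh1 the 1 of 20 in the TCA cycle list. Over all genes 1.79% passed. Of the list of fatty acid synthesis and desaturation 7 of 18 rose (1.14% of all genes), with a median of 0.27. Scd1, the stearoyl-CoA desaturase, lay at 324, 296 and 347 CPM with fructose and at 178, 146 and 160 CPM with glucose, a rise of 1.0 ± 0.12 (adjusted p = 5.07e-05). Its near-identical paralogue Scd2 rose by 0.52 ± 0.086 (adjusted p = 0.00079), and reads of the pair cannot be split with certainty. Elovl1, an elongase, rose by 0.30 ± 0.06 (adjusted p = 0.00666). Fasn, the fatty acid synthase itself (0.24, adjusted p = 0.524), and Srebf1 (0.07, adjusted p = 0.777) did not pass. Fads2, a desaturase of polyunsaturated fatty acids, rose by 0.40 (adjusted p = 0.0241) and Acsl3, an acyl-CoA synthetase, by 0.35 (adjusted p = 0.0316). The call of Fads2 was lost without fructose library 1 or 3 or glucose library 2 or 3 (adjusted p up to 0.157) and that of Acsl3 without any one library other than fructose library 2 (adjusted p up to 0.183).

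Among genes of sugar uptake and sensing, the fructose transporter gene rose and the thioredoxin-interacting protein gene fell. Slc2a5 (ENSRNOG00000017693, chromosome 5, 167141875 to 167174310 in Rnor_6.0), which encodes GLUT5, lay at 35.7, 34.2 and 31.1 CPM with fructose and at 14.1, 16.7 and 17.6 CPM with glucose, a rise of 1.06 ± 0.2 (adjusted p = 0.00451). The rise was 1.83 in WT, and the interaction did not pass (-0.77, adjusted p = 0.172). Slc2a5 was the only 1 of 7 tested genes of fructose and polyol metabolism to pass in KO (1.79% of all genes). Khk, the ketohexokinase gene, stayed below 1 CPM in all 6 libraries, between 0.206 and 0.887 CPM, and did not pass (adjusted p = 0.886). Fbp1, a gluconeogenic phosphatase gene, had 0 counts in all 6 libraries, which allows at most 0.0566 CPM with fructose and 0.0589 CPM with glucose, from counting error only. Tkfc (0.10), Sord (0.00) and Akr1b1 (0.16), the triose kinase and the polyol pathway genes, did not pass in KO (adjusted p = 0.743, 1 and 0.726), while all 3 passed in WT, at -0.70, 0.41 and 0.88.

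Txnip (ENSRNOG00000021201, chromosome 2, 198683159 to 198686974 in Rnor_6.0), a brake on glucose uptake that MondoA and ChREBP induce, lay at 11.1, 10.5 and 18.7 CPM with fructose and at 27, 31.3 and 35.8 CPM with glucose. All fructose libraries lay below the glucose libraries, a change of -1.21 ± 0.25 (adjusted p = 0.0111). In WT the change was -4.90, and the interaction of 3.69 passed (adjusted p = 4.05e-06). The KO call was lost without fructose library 1 (adjusted p = 0.0781) or 2 (0.074) or glucose library 3 (0.0642), and when the fit held only the 6 libraries (0.0607). Arrdc4, the paralogue regulated with Txnip, had no count in the 6 libraries. Klf10, another carbohydrate-responsive gene, did not pass in KO (-0.16, adjusted p = 0.462) and was at -1.02 in WT (interaction 0.87, adjusted p = 7.72e-06).

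In glycolysis, Hk1, a hexokinase gene, lay at 52.5, 55.6 and 54 CPM with fructose and at 41.4, 39.4 and 39.7 CPM with glucose, a rise of 0.43 ± 0.084 (adjusted p = 0.00507). Hk2 (0.02, adjusted p = 0.98) and the glucose transporter gene Slc2a1 (-0.16, adjusted p = 0.651) did not pass in KO. Both rose in WT, by 1.22 and 0.80, with interactions of -1.21 and -0.96 (adjusted p = 1.75e-06 and 0.000143). Pfkl, the liver-type phosphofructokinase gene, fell by 0.59 on the log2 scale (adjusted p = 0.00807), a call lost without fructose library 3 (adjusted p = 0.0605) or glucose library 2 (0.0566).

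Targets of the hypoxia-inducible factors (HIF) moved little, and those that passed fell: 4 of 22 (0.65% of all genes), with a list median of -0.15. In WT normoxia 7 rose (19.9% of all genes) and 5 fell (17.9%), with a median of -0.04. Car9, a cell-surface carbonic anhydrase, lay at 361, 315 and 400 CPM with fructose and at 515, 525 and 594 CPM with glucose, a fall of 0.60 on the log2 scale (adjusted p = 0.00237). Pdk1, the kinase that shuts pyruvate dehydrogenase, lay at 9.58, 10.3 and 11.4 CPM with fructose and at 18.6, 15 and 15.8 CPM with glucose, a change of -0.66 ± 0.11 (adjusted p = 0.000712). Neither pair of groups overlaps. P4ha1, a collagen prolyl hydroxylase, fell by 0.38 on the log2 scale (adjusted p = 0.00385). Ldha, the lactate dehydrogenase, lay at 777, 791 and 843 CPM with fructose and at 1119, 1058 and 913 CPM with glucose, and Bsg, the chaperone of lactate transporters, at 2164, 2039 and 2190 CPM with fructose and 2539, 2804 and 2626 CPM with glucose. These changes of -0.36 and -0.32 just passed (adjusted p = 0.0463 and 0.0423). The Ldha call was lost without any one library other than glucose library 3 (adjusted p up to 0.223) and the Bsg call without any single library (up to 0.206). Vegfa, the endothelial growth factor gene, did not pass (0.21, adjusted p = 0.404) and was at 1.58 in WT (interaction -1.36, adjusted p = 4.16e-07). The genotype interaction passed for Car9 (0.60), Pdk1 (-0.53), P4ha1 (-0.32) and Ldha (0.54). Car9 and Ldha thus fell more in WT than in KO, and Pdk1 and P4ha1 more in KO. In KO hypoxia Car9, Pdk1, P4ha1 and Ldha did not pass, at -0.16, -0.06, 0.09 and -0.01.

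Genes of cytoskeleton, keratin filaments and cell junctions made up part of the falls. The list of keratins and junction proteins was drawn up after the values had been seen. In KO normoxia 9 of 21 fell (0.65% of all genes) and 1 rose (1.14%), with a median of -0.38. In WT normoxia 9 fell (17.9% of all genes) and 2 rose (19.9%), with a median of -0.27. In KO hypoxia 8 fell (2.73% of all genes) and 0 rose, with a median of -0.23. Krt7, a simple-epithelial keratin, lay at 19.5, 17.3 and 16.9 CPM with fructose and at 37.2, 43.8 and 37.2 CPM with glucose, a fall of 1.14 ± 0.12 on the log2 scale (adjusted p = 5.81e-06). Krt14, a basal keratin, lay at 43, 36.9 and 45.2 CPM with fructose and at 68.4, 77.7 and 75.4 CPM with glucose, a change of -0.82 ± 0.11 (adjusted p = 8.19e-05). The claudin gene Cldn15 fell by 0.80, the paracingulin gene Cgnl1 by 0.41 and the polarity gene Crb2 by 0.45, with adjusted p = 5.07e-05, 0.0027 and 0.00151. Cgn (cingulin), Ppl (periplakin), Plekha7 and Magi3 fell by 0.76, 0.61, 0.38 and 0.27, and the plakophilin gene Pkp1 rose by 0.37. These last 5 calls were each lost without glucose library 2 and without others (adjusted p up to 0.107, 0.0865, 0.14, 0.135 and 0.0967 in that order).

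Of 13 genes of TEAD and YAP signalling, a list also drawn up afterwards, Ctgf and Tead4 fell (0.65% of all genes), with a list median of -0.14. In WT normoxia 6 fell (17.9% of all genes) and 1 rose (19.9%), with a median of -0.27. In KO hypoxia 5 fell (2.73% of all genes) and 0 rose, with a median of -0.23. Ctgf, a matricellular protein and standard YAP target, lay at 62.9, 71.3 and 67.7 CPM with fructose and at 131, 140 and 104 CPM with glucose, a fall of 0.89 ± 0.12 on the log2 scale (adjusted p = 0.000183). Tead4, a DNA-binding partner of YAP, fell by 0.68 (adjusted p = 0.000532), less than in WT (interaction 0.61, adjusted p = 0.00543). The interaction did not pass for Ctgf (0.20, adjusted p = 0.469). Col14a1, a fibril-associated collagen, lay at 3.43, 2.88 and 3.03 CPM with fructose and at 6.98, 9.27 and 8.2 CPM with glucose, a fall of 1.38 ± 0.15 on the log2 scale (adjusted p = 7.68e-06).

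Some cytoskeletal genes rose. Acta2, the smooth-muscle actin, lay at 12.2, 11.8 and 11.1 CPM with fructose and at 4.19, 3.34 and 4.02 CPM with glucose, a rise of 1.59 ± 0.29 (adjusted p = 0.00522). Des, the desmin gene, rose by 0.50 ± 0.079 (adjusted p = 0.000454). The 8 smooth-muscle and pericyte markers together summed to 213.8 to 230.3 CPM with fructose and 169.4 to 189.8 CPM with glucose. Most of that sum was Des, at 128 to 138 CPM with fructose and 92.4 to 99.5 CPM with glucose. The median change of the 6 tested markers was 0.02, and 3 of the 6 lay above 0. Acta2 and Des were the only ones of the 6 to pass (1.14% of all genes rose), and their part in the other results was not tested. Spry4, a feedback inhibitor of growth-factor signalling, rose by 0.74 ± 0.12 (adjusted p = 0.000802). The growth-response genes Phlda1 and Jun rose by 1.03 and 0.43 (adjusted p = 0.0128 for each), and both calls were lost without fructose library 2 or glucose library 3 (adjusted p up to 0.0904 for Phlda1 and 0.143 for Jun), that of Phlda1 also without glucose library 2.

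Other large changes fell outside the lists. Anxa8, an annexin, lay at 119, 108 and 109 CPM with fructose and at 47.9, 36.9 and 40.4 CPM with glucose, a rise of 1.42 ± 0.21 (adjusted p = 0.00056). Cfap70, a ciliary gene, rose by 2.91 ± 0.49 (adjusted p = 0.00151), from 0.906 to 1.44 CPM to 8.08 to 9.23 CPM. The potassium channel gene Kcnj15 rose by 1.30 ± 0.26, a call lost without glucose library 3 (adjusted p = 0.0622). Tnfrsf9, a tumour necrosis factor receptor family member, fell by 1.18 ± 0.23 (adjusted p = 0.00451), and Cdc42bpg, a kinase of the Cdc42 pathway, by 0.79 ± 0.16, a call lost without glucose library 2 (adjusted p = 0.0506).

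Several gene groups that passed in most members in WT had few or no members past the threshold in KO. Over all genes 37.9% passed in WT and 1.79% in KO, so a count near 0 in KO is near that of all genes. What was tested is the difference between genotypes, gene by gene, as the interaction. Of 19 ER chaperone and folding-enzyme genes, 0 passed in KO normoxia (edgeR; 1 at an unadjusted p under 0.05, and 0 by DESeq2), with a median of -0.08, while 16 rose in WT (19.9% of all genes) with a median of 0.75, and the interaction was negative and past the threshold in 17 (9.99% of all genes). Creld2, a folding factor gene, passed with a fall when the fit held only the 6 libraries (-0.50, adjusted p = 0.000651, against -0.49 and 0.304). 7 of the 15 members with a promoter window hold the ER stress response element (CCAAT, 9 bases, CCACG, on either strand), against 22 of all 33469 windows (0.0657%). 2 of these windows are printed, as the site through which ATF6 and XBP1 are known to act, with the element in capitals and the same source and limits as above.
Hspa5, chr3:38452766-38453065, plus strand: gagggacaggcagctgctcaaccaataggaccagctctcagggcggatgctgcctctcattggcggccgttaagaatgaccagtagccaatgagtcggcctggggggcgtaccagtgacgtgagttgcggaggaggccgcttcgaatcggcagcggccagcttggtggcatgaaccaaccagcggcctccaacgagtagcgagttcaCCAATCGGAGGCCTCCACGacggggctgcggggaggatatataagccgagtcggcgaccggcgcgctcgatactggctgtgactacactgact
Calr, chr19:40213117-40213416, plus strand: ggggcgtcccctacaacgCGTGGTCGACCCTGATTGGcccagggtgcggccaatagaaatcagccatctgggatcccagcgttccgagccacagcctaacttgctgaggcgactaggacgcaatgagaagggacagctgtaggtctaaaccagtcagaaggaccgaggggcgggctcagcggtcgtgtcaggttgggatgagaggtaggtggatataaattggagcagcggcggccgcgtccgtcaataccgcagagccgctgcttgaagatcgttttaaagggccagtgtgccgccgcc
The element begins 43 bases before the start of Hspa5 and 232 bases before that of Calr.

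Hspa5 (ENSRNOG00000018294, chromosome 3, 13838304 to 13842762 in Rnor_6.0), the chaperone BiP, lay in KO at 1128, 1198 and 1142 CPM with fructose and at 1411, 1448 and 1258 CPM with glucose. The change of -0.25 ± 0.16 did not pass (adjusted p = 0.587, 95% interval -0.58 to 0.08). In WT it lay at 3074, 2977 and 1739 CPM with fructose and at 1135, 1028 and 869 CPM with glucose, with 1 fructose library well below the other two yet above all glucose libraries. The interaction of -1.61 passed (adjusted p = 2.6e-05). Calr, another chaperone, was at -0.07 in KO (95% interval -0.26 to 0.12) and 1.11 in WT (interaction -1.18, adjusted p = 3.08e-07). Xbp1, the transcription factor of the same response, was at 0.03 and 0.50 (interaction -0.47, adjusted p = 0.00923).

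The ATF4 amino acid response had 22 of 24 members up in WT (19.9% of all genes), with a median of 0.89. In KO 1 was up (1.14% of all genes), with a median of 0.08. The interaction was negative and past the threshold in 16 (9.99% of all genes). The single KO call was Slc38a2, an amino acid transporter, at 0.27 (adjusted p = 0.0313), lost without any one library other than fructose library 3 (adjusted p up to 0.193). Slc3a2, the heavy chain of amino acid exchangers, lay in KO at 547, 553 and 503 CPM with fructose and at 553, 561 and 522 CPM with glucose, which overlap. In WT it lay at 2380, 2022 and 1251 CPM and at 321, 310 and 292 CPM, and the interaction was -2.64 (adjusted p = 8.31e-08). Ddit3, which encodes CHOP, was at -0.23 in KO (95% interval -0.51 to 0.04) and 1.36 in WT (interaction -1.59, adjusted p = 2.36e-06). Gadd45b was the 1 gene of 12 in the list of CHOP and stress effectors to pass in KO (1.79% of all genes). Its change was -0.60 (adjusted p = 0.0238 by edgeR). That call was lost without any one library other than fructose library 3 (adjusted p up to 0.133).

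Proliferation genes showed the same split with the other sign. All 25 DNA replication genes and all 21 mitosis genes fell in WT (17.9% of all genes), with medians of -1.18 and -1.02. In KO 0 of either list passed (edgeR; 2 and 0 at an unadjusted p under 0.05, and 0 and 0 by DESeq2), with medians of -0.10 and -0.06, and the interaction was positive and past the threshold in every member of both lists (9.15% of all genes). With only the 6 libraries in the fit 1 replication gene, Mcm2, passed in KO with a fall (-0.26, adjusted p = 0.0409). Mcm5, part of the replicative helicase, lay in KO at 465, 486 and 441 CPM with fructose and at 557, 563 and 460 CPM with glucose (-0.18, 95% interval -0.56 to 0.19), and was at -1.40 in WT. Mki67, a marker of cycling cells, was at -0.10 in KO (95% interval -0.38 to 0.17) and -0.98 in WT (interaction 0.88, adjusted p = 0.0015). Of 23 ribosomal protein genes 14 rose in WT (19.9% of all genes). In KO 0 passed by edgeR (1.79% of all genes), with 3 at an unadjusted p under 0.05, and 0 passed by DESeq2. Their interaction was negative and past the threshold in 16 (9.99% of all genes). Of 27 lysosome and autophagy genes 19 rose (19.9% of all genes) and 2 fell (17.9%) in WT. In KO 0 passed by edgeR (1.79% of all genes), with 7 at an unadjusted p under 0.05, and 2 passed by DESeq2. Their interaction was negative and past the threshold in 17 (9.99% of all genes). Npc1, the lysosomal cholesterol exporter, was at 0.18 in KO (95% interval 0.02 to 0.34) and 1.58 in WT (interaction -1.41, adjusted p = 4.75e-09).

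**Figure D3:**
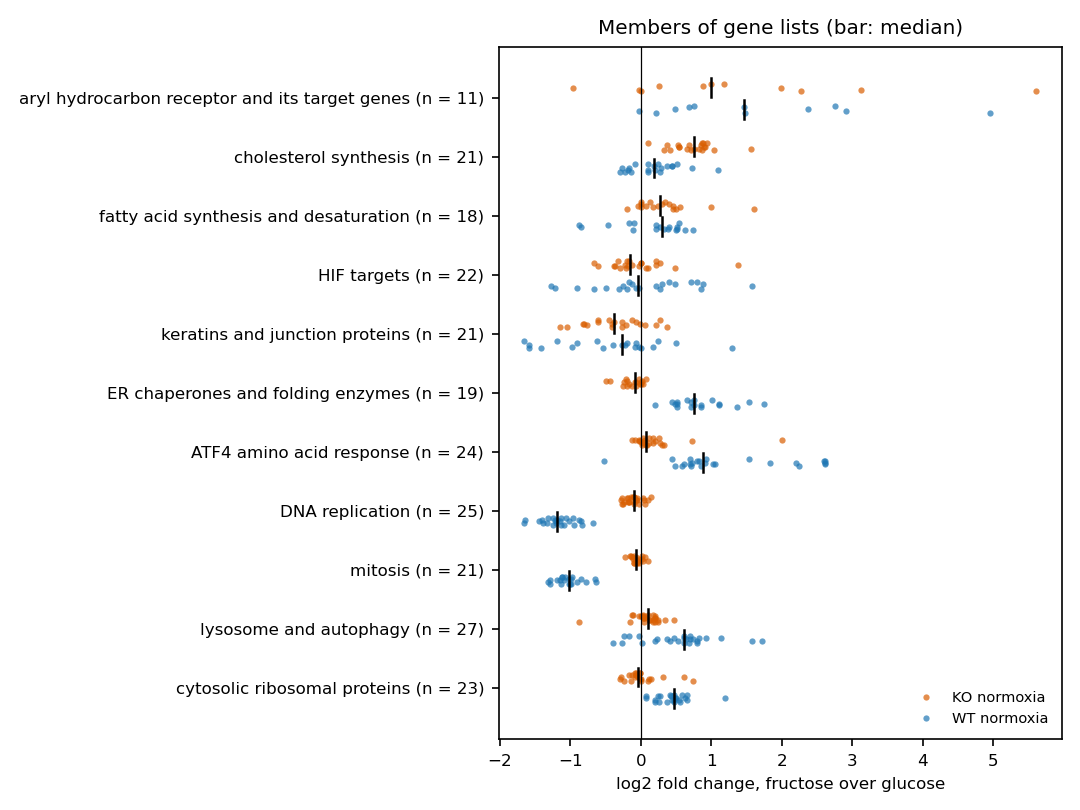
Log2 fold change, fructose over glucose, of each tested member of 11 gene lists in KO normoxia (orange) and WT normoxia (blue); the black bar is the list's median. The KO medians lie near 0 for the ER, ATF4, replication, mitosis, lysosome and ribosome lists, from -0.10 to 0.10, where WT medians run from -1.18 to 0.89.

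**Figure D4:**
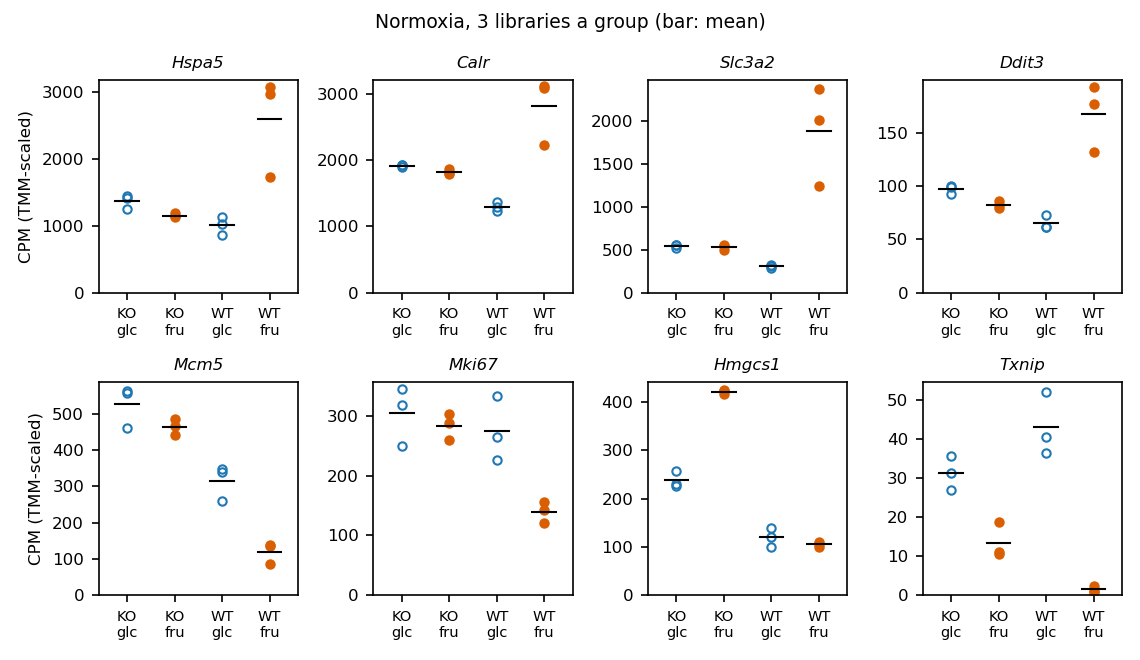
CPM of 8 genes in the 12 normoxia libraries, 3 a group, with glucose (glc, open blue) or fructose (fru, filled orange) and a bar at the mean; each axis starts at 0. Hspa5, Calr, Slc3a2, Ddit3, Mcm5 and Mki67 separate by sugar in WT and not past the threshold in KO, Hmgcs1 separates in KO and not past the threshold in WT, and Txnip separates in both with the larger fall in WT.

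The 265 genes were sorted by their response in WT normoxia. In 127 both genotypes passed in the same direction and the interaction did not pass, and in 55 both passed in the same direction and the interaction passed, of which 50 changed more in WT and 5 more in KO. In 15 both passed in opposite directions, in 42 KO passed, WT did not and the interaction passed, and in 26 KO passed, WT did not and the interaction did not pass either. The 182 shared in the same direction are 68.7% of the KO list and 3.25% of the WT list.

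The 42 genes that passed in KO, not in WT and in the interaction were 0.284% of those tested, 25 up and 17 down. Among the 8 with the most positive interaction, which the naming rule took, were Acat2, Dhcr7, Hmgcs1, Idi1, Ubash3b, Mvd and Nsdhl, and all of these but Ubash3b are sterol genes. Ubash3b, a phosphatase that damps receptor signalling, rose by 0.74 ± 0.15 from 16.4, 14 and 12 CPM to 22, 25.2 and 23.4 CPM (adjusted p = 0.00593), with an interaction of 0.84, and its call was lost without glucose library 3 (adjusted p = 0.0654). The 8 with the most negative interaction were Pdia5, Slc24a3, Kdm4b, Krt14, Pdk1, Wnt4, Aif1l and Rai1. Wnt4, a secreted signalling protein, lay at 63.2, 61.7 and 74.2 CPM with fructose and at 85.6, 99.3 and 115 CPM with glucose, a fall of 0.59 on the log2 scale (adjusted p = 0.00163), against -0.10 in WT. Slc24a3, a sodium-calcium exchanger gene, lay at 9.7, 9.98 and 11.6 CPM and at 16.6, 17.1 and 17.6 CPM, a fall of 0.71 that was lost without fructose library 1 (adjusted p = 0.0597). Pdia5, Kdm4b, Aif1l and Rai1 fell by 0.78, 0.47, 0.36 and 0.36, each lost without glucose library 2 and 2 or more others (adjusted p up to 0.192, 0.155, 0.0994 and 0.129). The count of 42 fell to 25 without KO fructose library 1, to 27 without KO glucose library 2 and to 21 without KO glucose library 3.

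The 6 largest interactions among the 15 genes of opposite direction were in Fam64a, Ackr4, Arnt2, Fads2, Zfp423 and Fgfr3. Fam64a, a mitotic regulator also called PIMREG, lay in KO at 41.5, 42.2 and 44.5 CPM with fructose and at 32.6, 31.1 and 29 CPM with glucose, a rise of 0.47 ± 0.097 (adjusted p = 0.00783), and changed by -1.33 in WT (interaction 1.80, adjusted p = 5.51e-09). Ackr4, a scavenging chemokine receptor, rose by 0.77 in KO and changed by -0.99 in WT, and the zinc-finger gene Zfp423 rose by 0.48 and changed by -0.69. Fgfr3, a fibroblast growth factor receptor gene, went the other way, with -0.53 in KO and 0.57 in WT. The KO calls of this set were lost without single libraries: Fam64a without glucose library 3 (adjusted p = 0.0654), Ackr4 without any one library other than fructose library 2 (up to 0.148), Zfp423 without any one library (up to 0.111) and Fgfr3 without fructose library 2 or glucose library 2 or 3 (up to 0.0812).

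**Figure D5:**
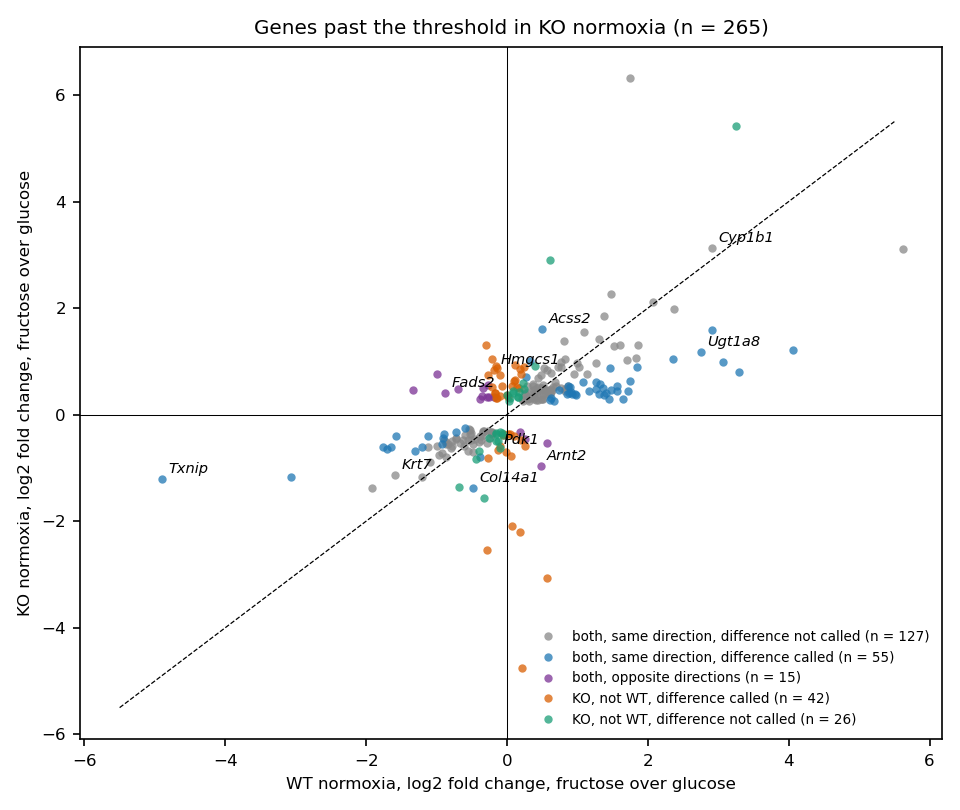
Each point is 1 of the 265 genes past the threshold in KO normoxia, at its log2 fold change, fructose over glucose, in WT normoxia (horizontal) and KO normoxia (vertical), coloured by the class described in the text; the dashed line marks equal change. Cyp1b1 lies near the line, Txnip far to the left of it at -4.90 in WT and -1.21 in KO, and the sterol genes among the 265 lie between -0.29 (Stard4) and 1.09 (Tm7sf2) in WT.

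The same sugar comparison in KO hypoxia passed for 176 of the 265 in the same direction, 66.4% of the KO normoxia list and 21.97% of the KO hypoxia list, and none of the 265 passed in the other direction. The sign was shared by 252 of the 265, called or not. The test that the response differs with oxygen passed for 1 gene of 14770 (0.00677%; 870 at an unadjusted p under 0.05), an unnamed locus at 0.34 in KO normoxia and -1.0 in KO hypoxia. The count was 22 by DESeq2. Values of named genes lay side by side as follows: Hmgcs1 changed by 0.83 in normoxia and 1.51 in hypoxia, Acss2 by 1.61 and 1.94, Krt7 by -1.14 and -1.52, and Cyp1b1 by 3.13 and 1.93.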

How the data were processed

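The authors deposited raw counts per gene for 24 libraries, 3 for each pairing of genotype, sugar and oxygen condition. RNA and libraries were handled by Novogene, per the labels' protocols. HISAT2, DESeq2 and Rnor_6.0 are named without versions, per the submitters' processing notes. How reads were counted, and whether strand was used, is not given in the sources used here. A read shared by overlapping, antisense or near-identical genes has no certain owner. Unannotated loci, 1978 of the 34523 genes, took 1.216 to 1.41% of the counts of the 6 libraries and were kept, and 5 empty lines are not used here.

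In KO normoxia the TMM factors were 1.001 to 1.056, mitochondrially encoded genes took 1.66 to 2.748% of the counts, and log2 CPM of libraries of 1 group correlated across genes (not replicates) at 0.9878 to 0.9911. No pair of libraries was a duplicate (chi-square per gene 5.14 to 13.61). filterByExpr with a minimum count of 10 and a minimum total of 15 kept 14770 genes, and edgeR 4.0.16 (R 4.3.3) was run as a robust quasi-likelihood fit over all 24 libraries (residual degrees of freedom 16, common coefficient of variation 0.146). P-values were adjusted by Benjamini-Hochberg over those genes, with a threshold of 0.05. The standard error is the log2 fold change over the root of F, with 95% intervals on 16 degrees of freedom, and a count of 0 is bounded by 3 counts over a group. The test was tried on simulated data.

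The members and the 46 gene lists were chosen with earlier results of these data known, and 3 lists were added after the values were seen. Some genes are not reported here and were left out of the lists. Lists are described by counts and medians, with no test of their own. The naming rule took 31 genes for their role, the 15 largest rises and 15 largest falls, 8 and 8 interactions among genes past the threshold in KO and not in WT, 6 of opposite direction and up to 5 leading members of a list. The ranked parts needed a mean log2 CPM of at least 1, groups that do not overlap and a name other than that of a predicted locus. Which of these genes are printed was decided with the values in view. Numbered samples are not stated to be separate cultures, and p-values then measure only a spread between samples that may be technical. Same-numbered WT normoxia samples deviated together (correlations 0.13, 0.12 and 0.218), and a block on the number moved the WT count by less than 1.5 times. The same block moved the KO normoxia count by more than that, from 265 to 571. Alternatives were DESeq2 1.42.0 and its size factors, no filter, a replicate block, unnamed genes left out, only the libraries compared, and each library left out in turn. Promoter windows are RefSeq's (GRCr8), matched by symbol.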

Additional observations from a re-analysis of the deposited data

Results flagged for a closer look

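Each gene below had a sugar response in normoxia that differed between KO and WT by the test of the difference itself, and the value is the log2 interaction, KO minus WT. Of 74 such named genes, 58 passed without each single library.

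Positive values stood in the sterol genes Acat2 (1.26), Dhcr7 (1.06), Hmgcs1 (1.01), Idi1 (1.01), Mvd (0.83), Fdft1 (0.81), Nsdhl (0.66), Hsd17b7 (0.65), Stard4 (0.62), Sc5d (0.56), Fdps (0.54) and Cyp51 (0.44), where the KO response lay above that of WT. In lipid supply they stood in Fads2 (1.28), Acss2 (1.11), Scd1 (0.66), Acsl3 (0.45), Scd2 (0.39) and Slc25a1 (0.34), with negative values in Srebf1 (-0.44), G6pdx (-0.33) and Acly (-0.28).

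Among sugar and HIF genes, Txnip (3.69), Klf10 (0.87), Tkfc (0.80), Car9 (0.60) and Ldha (0.54) had positive values, the KO response lying above that of WT. Negative values stood in Vegfa (-1.36), Hk2 (-1.21), Pfkfb3 (-1.18), Slc2a1 (-0.96), Akr1b1 (-0.72), Pdk1 (-0.53), Sord (-0.41) and P4ha1 (-0.32). In the AhR and reductase genes the values were -1.58 for Ugt1a8, -1.43 for Arnt2, -1.29 for Akr1b8 and -0.58 for Ahrr.

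Stress and growth groups with few calls in KO had negative values in Slc3a2 (-2.64), Hspa5 (-1.61), Ddit3 (-1.59), Npc1 (-1.41), Sqstm1 (-1.37), Calr (-1.18), Creld2 (-0.94), Atf4 (-0.77), Xbp1 (-0.47), Rplp0 (-0.47) and Slc38a2 (-0.34). Positive values stood in Mcm5 (1.21), Gadd45b (1.16), Tyms (1.06), Mcm2 (0.99) and Mki67 (0.88).

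For cytoskeleton, junctions and matrix the values were 1.16 for Cgnl1, 1.04 for Ppl, 0.61 for Tead4, 0.36 for Pkp1, -1.32 for Acta2, -0.91 for Col14a1, -0.70 for Crb2, -0.55 for Krt14 and -0.42 for Cldn15. The remaining ranked genes were Fam64a (1.80), Ackr4 (1.76), Zfp423 (1.17), Ubash3b (0.84), Fgfr3 (-1.10), Pdia5 (-0.83), Slc24a3 (-0.71), Kdm4b (-0.66), Wnt4 (-0.49), Aif1l (-0.39) and Rai1 (-0.37).

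The call was lost without at least 1 library in Ahrr, Cyp51, Hsd17b7, Acly, G6pdx, P4ha1, Acta2, Cldn15, Pdia5, Wnt4, Aif1l, Rai1, Creld2, Slc25a1, Scd2 and Pkp1. Their largest adjusted p-values of edgeR's test over the omissions ran from 0.0529 (Aif1l, without WT fructose library 1) to 0.159 (Pdia5). By the test of the difference between oxygen conditions in KO cells, an unnamed locus on chromosome 1 had a value of -1.33 (hypoxia minus normoxia).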

How the results depend on the processing

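None of the 265 called genes changed sign in any alternative in which it was tested, nor did any of the 74 named genes with a passed interaction. This was all but fixed in advance for both sets, since the alternatives drew on the same counts. The groups of the 265 do not overlap, and the 74 were picked for a passed interaction. Of named genes that did not pass, 9 of 33 changed sign in KO normoxia in some alternative (Hk2 from -0.06 to 0.11) and 14 of 47 in the interaction (Cyp1a1 from -1.97 to 1.16), and none passed with the changed sign. The count of 265 genes (169 up, 96 down) was 415 (257 and 158) by DESeq2, and 145 to 203 (97 to 128 and 41 to 75) with 1 library left out. Calls shared with the 265 were 262 by DESeq2, 261 with DESeq2 size factors, 228 with no filter and 133 to 183 with 1 library left out. The labels do not say what a replicate number marks. Same-numbered KO normoxia samples correlated at 0.056, 0.07 and 0.105 in their deviations, each sample correlating best with its own number, which is a hint from the data and not the design. With the number as a block the KO normoxia count was 571 (361 and 210), the KO hypoxia count 1543 against 801, the KO-only count 73 against 42, and the oxygen interaction 15 against 1. That interaction passed for 22 genes by DESeq2 and for 4 with only the libraries of the comparison, and the cause was not tested. It passed for 0 with unnamed genes left out, since its 1 gene has no name, and for 1 with each library left out in turn. With 1 library left out, counts were 21 to 43 for KO-only genes, 455 to 635 for KO hypoxia, 4742 to 5256 for WT normoxia and 2349 to 2883 for the genotype interaction, and 17 to 18 sterol genes rose. Of 88 named genes called in KO normoxia, 54 passed without each single library. At 3 libraries a group, changes below the size of the spread could not be shown, and a gene that did not pass is not shown to be unchanged.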

Other observations

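The following 5 genes of heme synthesis and handling passed in KO normoxia, 2 up (1.14% of all genes) and 3 down (0.65%). They were picked because they passed, and the route as a whole was not counted. Alas1, the first and rate-limiting enzyme of heme synthesis, lay at 48.6, 50.1 and 52.5 CPM with fructose and at 29.8, 27.3 and 31.3 CPM with glucose, a rise of 0.77 ± 0.11 (adjusted p = 0.000224 by edgeR). Cpox, a later enzyme of the route, rose by 0.47 ± 0.098 (adjusted p = 0.00749), a call lost without glucose library 2 (adjusted p = 0.0503). Alad, the enzyme after Alas1, fell by 0.35 on the log2 scale (adjusted p = 0.0355), the heme transporter gene Slc48a1 by 0.41 (adjusted p = 0.0128) and Fdxr, the mitochondrial ferredoxin reductase, by 0.48 (adjusted p = 0.00584). The last 3 calls were each lost without glucose library 3 (adjusted p = 0.129, 0.0968 and 0.0533), and those of Alad and Slc48a1 also without others (up to 0.184 and 0.111).

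Nupr1, a stress-induced nuclear protein gene, lay at 5.74, 7.23 and 204 CPM with fructose and at 3.95, 4.25 and 5.93 CPM with glucose. The value rests on fructose library 3, and the change did not pass (adjusted p = 0.0568 by edgeR).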
